A study of Mus musculus with 31 samples.

Results

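The 5 *Serpina1* paralogs of the mouse (*Serpina1a*, *Serpina1b*, *Serpina1c*, *Serpina1d* and *Serpina1e*) encode alpha-1 antitrypsin, and they were followed here as 5 of the 31172 gene symbols measured in the liver of 31 *hFIX-R29X* mice. They were chosen as a family by name. The interest in them came from measured values, since *Serpina1e* was picked out by its low level in mice given *Upf3b*-GalNAc-ASO at 10 mg/kg as compared with Control-GalNAc-ASO at 15 mg/kg. In that comparison the 5 paralogs and their sum are therefore described without a test, while other genes were tested. The paralogs were tested on the mice of the 20 mg/kg groups and on the sexes in the DPBS group. The genes were chosen with earlier results of the whole series known. Whether values of the 20 mg/kg mice also played a part in the choice is not known, so the p-values below are not independent evidence if they did.

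All 5 groups, controls included, came from the same hemophilia B model, *hFIX-R29X*. Its own factor IX gene is missing, and a transgene supplies a human factor IX minigene that carries the premature stop R29X. A human liver promoter, that of transthyretin, drives the transgene. Adult mice of 8 to 14 weeks received 6 subcutaneous doses, 1 every 5 days, of DPBS (a saline buffer), of a GalNAc-conjugated ASO of control sequence (Control-GalNAc-ASO) or of a GalNAc-conjugated ASO against *Upf3b* (*Upf3b*-GalNAc-ASO). Livers were sampled 48 h later than dose 6. The groups were DPBS (11 mice, 6 female and 5 male), Control-GalNAc-ASO at 15 mg/kg (4 mice, 2 female and 2 male), Control-GalNAc-ASO at 20 mg/kg (6 mice, 3 female and 3 male), *Upf3b*-GalNAc-ASO at 10 mg/kg (5 mice, 2 female and 3 male) and *Upf3b*-GalNAc-ASO at 20 mg/kg (5 mice, 2 female and 3 male). An ASO of this type is a short modified DNA strand that pairs with an mRNA and leads to its cleavage, and the GalNAc sugar directs it to hepatocytes. The Upf3b protein is a factor of nonsense-mediated mRNA decay (NMD), the pathway that degrades mRNAs with premature stop codons.

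Alpha-1 antitrypsin is a serpin, a protease inhibitor that is secreted into the blood by hepatocytes and is best known for blocking neutrophil elastase. A serpin presents an exposed reactive centre loop as bait; the protease cuts the loop, is trapped by a large change of shape and is inactivated together with the inhibitor. Humans have a single gene, whereas in the mouse the locus was duplicated, and the mouse copies differ mainly in the loop, which sets the choice of protease.

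The stretch that encodes the loop is shown because it is where the paralogs differ most visibly, and because the measured reads can be assigned to one paralog only where the letters differ. These 75 coding bases, read 5′ to 3′ from the mRNA strand (the minus strand of GRCm38, GENCODE M21), start at coding base 1087 in each paralog and lie in the last of 5 exons, 165 to 168 bases before the 3′ end of the transcript, at chr12:103853756-103853830 in *Serpina1a*, chr12:103728323-103728397 in *Serpina1b*, chr12:103895093-103895167 in *Serpina1c*, chr12:103763761-103763835 in *Serpina1d* and chr12:103947099-103947173 in *Serpina1e*. Capitals mark the 18 positions at which the 5 sequences are not all the same.
Serpina1a: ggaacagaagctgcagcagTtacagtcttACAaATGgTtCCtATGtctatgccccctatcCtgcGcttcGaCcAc
Serpina1b: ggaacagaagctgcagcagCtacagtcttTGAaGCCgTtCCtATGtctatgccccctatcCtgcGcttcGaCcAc
Serpina1c: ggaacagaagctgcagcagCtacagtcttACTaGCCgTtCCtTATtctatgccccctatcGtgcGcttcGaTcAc
Serpina1d: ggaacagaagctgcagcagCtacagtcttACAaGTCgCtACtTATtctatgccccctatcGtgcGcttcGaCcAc
Serpina1e: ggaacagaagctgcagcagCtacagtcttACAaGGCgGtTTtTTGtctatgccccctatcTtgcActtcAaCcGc
At 4 of these positions *Serpina1e* differed from the 4 others while those were identical. Over the whole coding sequence of 1242 bases any pair of the paralogs was 96.3 to 98.5% identical, and over the last 300 bases of the transcripts 91.1 to 95.7% identical. The main transcripts were 1360 to 1575 bases long and lay within 230820 bases of chromosome 12.

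This likeness bears on every value below. Of all stretches of 31 bases in the main transcript, only 10.0% were found in no other gene for *Serpina1a*, 35.6% for *Serpina1b*, 17.8% for *Serpina1c*, 35.3% for *Serpina1d* and 44.7% for *Serpina1e*. In the last 300 bases, where a 3′ tag library reads, the share rose to 66.7% for *Serpina1e* and was 23.0 to 54.8% for the others. The values held fractions of reads: divided by the value of 1 read, those of *Serpina1a* to *Serpina1e* were whole numbers (within 0.02 reads) in only 3, 2, 1, 2 and 1 of 31 mice, as compared with a median of 29 of 31 mice over 860 other genes of similar level. Such fractions were not particular to the paralogs, since *Upf3b* was whole in 0 of 31 mice. The sum of the 5 (summed TPM) does not depend on a division of reads among themselves. It was not a whole number in every mouse either, as with 4835.27 reads in Control-GalNAc-ASO mouse 1 at 20 mg/kg. Whether reads were also divided with genes outside the 5 was not tested.

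The sequences before the RefSeq starts of the genes are shown because they too are nearly the same in all 5. The 120 bases below, read on the strand of the gene, end 0 to 62 bases before the RefSeq start (GRCm38.p6) and lie at chr12:103863625-103863744 for *Serpina1a*, chr12:103738200-103738319 for *Serpina1b*, chr12:103904962-103905081 for *Serpina1c*, chr12:103773634-103773753 for *Serpina1d* and chr12:103956960-103957079 for *Serpina1e*. For *Serpina1e* the stretch lies inside the longer main transcript of GENCODE M21 (chr12:103946931-103958975), which starts farther upstream than the RefSeq start. Capitals mark the 10 positions that are not the same in all 5.
Serpina1a: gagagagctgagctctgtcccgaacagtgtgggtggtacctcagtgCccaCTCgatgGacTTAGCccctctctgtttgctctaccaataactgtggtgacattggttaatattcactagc
Serpina1b: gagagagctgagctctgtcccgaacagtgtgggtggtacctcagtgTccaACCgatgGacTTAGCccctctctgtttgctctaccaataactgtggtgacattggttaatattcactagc
Serpina1c: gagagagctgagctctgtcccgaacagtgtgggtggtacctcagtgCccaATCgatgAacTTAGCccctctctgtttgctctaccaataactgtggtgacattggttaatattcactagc
Serpina1d: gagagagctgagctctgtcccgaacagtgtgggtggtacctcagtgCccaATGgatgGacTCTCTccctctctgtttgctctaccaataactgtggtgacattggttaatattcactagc
Serpina1e: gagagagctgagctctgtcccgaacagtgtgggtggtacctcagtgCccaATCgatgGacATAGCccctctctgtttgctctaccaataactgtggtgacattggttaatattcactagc
*Serpina1e* differed from *Serpina1a* and from *Serpina1c* at 2 of 120 positions each, from *Serpina1b* at 3 and from *Serpina1d* at 6. The letters GTTAAT, part of the site of the hepatocyte factor HNF1, were found on either strand in the 250 bases before the start of all 5 paralogs and of 6.43% of 32851 promoters. The letters TTCNNNGAA, the palindrome of STAT factors, were found before none of the 5 paralogs and before 7.02% of all promoters, which says only that this window does not hold those letters.

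The *Upf3b*-ASO of the study (5′ to 3′) is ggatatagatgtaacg. Among the spliced transcripts, its complement was found in full in 1 only, of *Upf3b*, whereas the best match in any transcript of the paralogs covered 9 to 11 of 16 bases. Introns were not searched. None of the 11 transcripts annotated for the paralogs is of the NMD type.

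The libraries held 1020676 to 7391615 reads per mouse (median 3627941), so that 3 reads, the limit of what a count of 0 allows, were worth 0.406 to 2.94 TPM. Values are in TPM, read numbers scaled to the same total in each mouse by the quantifier, and since they came from 3′ tag libraries and were not divided by length, they compare a gene between mice rather than one gene with another. *Upf3b*, the targeted gene, was 2.57 to 16.7 TPM in the mice given *Upf3b*-GalNAc-ASO at 20 mg/kg and 85.3 to 135 TPM in the Control-GalNAc-ASO mice at 20 mg/kg (log2 fold change -3.87, adjusted p = 1.59e-05, limma). At 10 mg/kg it was 3.95 to 53.7 TPM, overlapping the 27.1 to 78.7 TPM of the Control-GalNAc-ASO mice at 15 mg/kg (log2 fold change -1.73, adjusted p = 0.211). The highest of these values belonged to female mouse 3, whose library was the shallowest of all and had the lowest correlation with its group (median r of 0.677). Hepatocyte markers (9 genes) summed to 18920 to 44518 TPM in every mouse, those of neutrophils (8 genes) to at most 110.3 TPM and those of lymphocytes (9 genes) to at most 33.3 TPM.

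In DPBS-treated liver the family summed to 2264 to 6585 TPM, and over all 31 mice it held 0.0789 to 0.664% of all TPM. *Serpina1c* was 617 to 2074 TPM (median 981), *Serpina1b* 449.9 to 1369 TPM (median 749.8), *Serpina1a* 448 to 743 TPM (median 582) and *Serpina1d* 264 to 646 TPM (median 454). *Serpina1e* had the widest range of the 5, from 16.6 to 2149 TPM with a median of 96.0 TPM. *Serpina1f*, a relative outside the 5, was listed at 0 in every mouse.

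The range of *Serpina1e* followed sex. In the 5 DPBS-treated males it was 2149, 1439, 831, 744 and 1198 TPM. In the 6 females it was 59.8, 28.5, 16.6, 31.1, 96.0 and 21.8 TPM. Every male lay above every female, the lowest male at 744 and the highest female at 96.0 TPM, and the mean of the males was 30.1 times that of the females. The share of all genes that separated the sexes without overlap was not counted. In limma, *Serpina1e* was higher in males by 5.03 on the log2 scale (SE 0.40, adjusted p = 4.55e-07), the only one of the 5 paralogs called at an adjusted p under 0.05, where 0.667% of the 8998 genes tested were called higher and 0.745% lower in males. *Serpina1e* stayed called with each mouse left out (4.81 to 5.31).

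**Figure D1:**
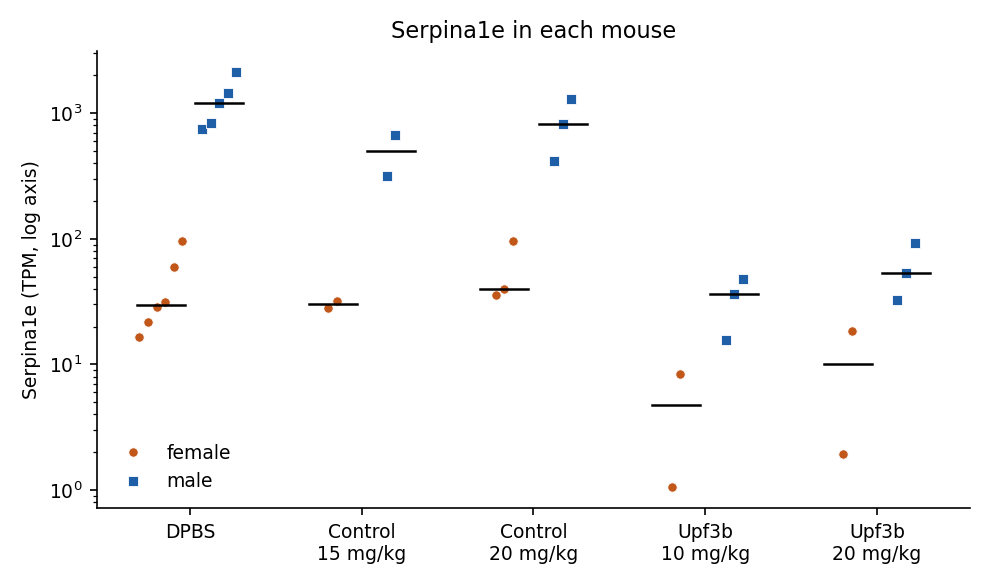
*Serpina1e* in each of the 31 mice (TPM, log axis) by group, with females as circles, males as squares and the median of each sex as a bar. Males lie above females in every group, DPBS males between 744 and 2149 TPM, and the males given *Upf3b*-GalNAc-ASO lie between 15.6 and 92.4 TPM, beside 16.6 to 96.0 TPM in the females of the DPBS and Control-GalNAc-ASO groups.

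The other 4 paralogs did not pass the test between the sexes. *Serpina1c* averaged 1406 ± 550.2 TPM (SD, n = 5) in males and 836 ± 222 TPM (SD, n = 6) in females, with a log2 difference of 0.70 (SE 0.26, adjusted p = 0.356). It did pass when sex was fitted over all 5 groups at once (0.86, adjusted p = 0.00216). *Serpina1b* and *Serpina1d* had the opposite sign, with log2 differences of -0.51 (adjusted p = 0.502) and -0.48 (adjusted p = 0.545), and *Serpina1a* was close to 0 at 0.06 (adjusted p = 0.934). The summed TPM was 0.53 higher in males (SE 0.22, adjusted p = 0.443), and 0.56 higher (adjusted p = 0.0147) over all 5 groups.

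Among the lists of related genes the sexes also separated. Of 13 male-biased liver genes tested, all 13 were higher in DPBS-treated males, among them *Mup20* (7939 ± 2129 TPM in males, n = 5, and 128 ± 41.8 TPM in females, n = 6, SD), a major urinary protein that binds pheromones, and *Cyp4a12a*, a fatty acid hydroxylase, with a log2 difference of 6.37 (adjusted p = 1.90e-07). Of 11 female-biased genes tested 10 were lower in males, among them *Cyp2c69* (-6.46, adjusted p = 1.90e-07) and *A1bg* (-6.91, adjusted p = 1.73e-04). These lists were made of genes known for their sex bias, so their direction was given, and the *Mup* genes are near-identical copies whose reads may be divided among them. Among 10 other clade A serpins tested, *Serpina3m*, of the antichymotrypsin-like branch, was lower in males (64.3 ± 26.2 TPM against 232 ± 154 TPM, adjusted p = 0.0440). *Alb*, the albumin gene and a hepatocyte marker, was lower in males as well (log2 difference of -0.92, adjusted p = 0.0208).

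*Upf3b*-GalNAc-ASO was then compared with Control-GalNAc-ASO at the matched dose of 20 mg/kg. *Serpina1e* was 92.4, 32.5 and 53.3 TPM in the 3 treated males and 418, 820.0 and 1310.6 TPM in the 3 control males. In females it was 1.92 and 18.3 TPM in the treated mice and 95.7, 35.8 and 39.7 TPM in the control mice. Within each sex the groups did not overlap, with means 14.3-fold lower in treated males and 5.65-fold lower in treated females, whereas across the sexes the treated males overlapped the control females. With only 2 or 3 mice per sex and group, the share of all genes that separated in this way was not counted. The fit with sex as a covariate gave a log2 fold change of -3.35 (SE 0.48, 95% interval -4.37 to -2.34, adjusted p = 0.00132). *Serpina1e* was the only one of the 5 paralogs called lower and none was called higher, where 1.59% of the 9376 genes tested were called lower and 0.928% higher. The call was lost without sex in the fit (-3.01, adjusted p = 0.240) and in females alone (-2.81, adjusted p = 0.106).

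The other 4 paralogs were lower on average, each by less than *Serpina1e*, and none passed the test over all genes. In the means of males, *Serpina1a*, *Serpina1b*, *Serpina1c* and *Serpina1d* were at 81.3, 93.4, 64.5 and 69.2% of the controls. In the means of females they were at 57.8, 54.1, 38.1 and 40.2%. The interaction of treatment and sex was called for none of them. *Serpina1c* was 181.9, 617, 694, 1082 and 678 TPM in the treated mice and 836 to 1431 TPM in the controls, with 1 treated male inside the range of the controls (log2 fold change -1.08, SE 0.30, adjusted p = 0.0612). *Serpina1d* was 158 to 384 TPM as compared with 281 to 629 TPM (-0.91, SE 0.28, adjusted p = 0.0851). *Serpina1c* and *Serpina1d* both passed when treated male mouse 4, the highest treated mouse for both, was left out (-1.24, adjusted p = 0.0371, and -1.10, adjusted p = 0.0338), and *Serpina1c* also with a pseudocount of 5 (adjusted p = 0.0486) and with all 5 groups in one fit (adjusted p = 0.0472). *Serpina1a* was 201 to 358 TPM as compared with 366 to 679 TPM, without overlap (-0.51, SE 0.26, adjusted p = 0.294). The share of all genes without overlap between these groups was not counted. *Serpina1b* was 360.4 to 725 TPM as compared with 460.3 to 1187 TPM (-0.44, SE 0.27, adjusted p = 0.399). The median log2 fold change of all genes tested was -0.12, and after rescaling between mice by median-of-ratios -0.01. That rescaling turned the split of calls over all genes from 87 higher and 149 lower into 155 higher and 127 lower, while *Serpina1e* remained called lower.

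The summed TPM of the family was 904, 1914, 1872, 2567 and 1900.3 TPM in the treated mice and 3994, 2803, 2350.2, 3219, 3941 and 3613 TPM in the controls, so that only the highest treated mouse reached into the range of the controls. The mean of the treated group was 55.2% of that of the controls (1832 ± 595 TPM, n = 5, against 3320.1 ± 655 TPM, n = 6, SD). With the 5 paralogs replaced by their sum, limma gave -0.95 (SE 0.24, adjusted p = 0.0409). An exact permutation test of the sum on the log2 scale, with mice exchanged between groups within each sex, gave p = 0.005 (two-sided, 200 permutations, 0.01 after Benjamini-Hochberg adjustment over 2 tests), the smallest p it can give. The limma call was near its threshold: leaving out any of 8 of the 11 mice (each of the 6 controls and treated mice 1 and 5) ended it (-1.01 to -0.73, adjusted p from 0.0521 to 0.147, the highest without treated female mouse 1), as did the sum of the 4 paralogs without *Serpina1e* (-0.75, adjusted p = 0.116). Bulk liver RNA cannot tell fewer hepatocytes from less of these mRNAs per hepatocyte. The summed hepatocyte markers were 19874 to 31331 TPM in the treated mice and 22073 to 33279 TPM in the controls, with medians of 20488 and 30557 TPM and none of the 9 called. Beside -0.12 for all genes tested, the median log2 fold change of these 9 markers was -0.05. Their part in the lower sum was not tested.

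**Figure D2:**
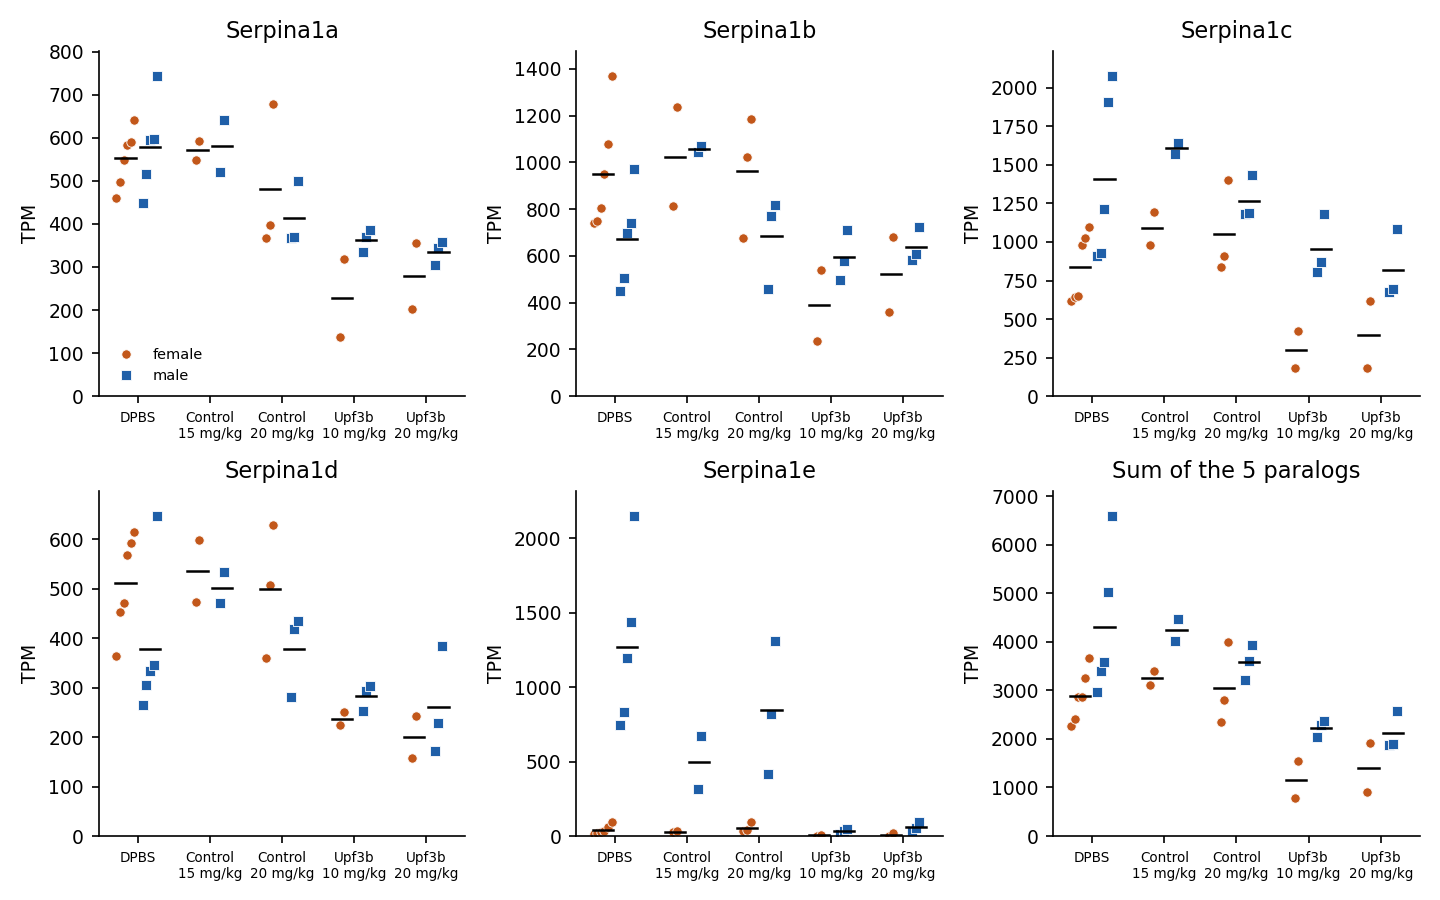
TPM of each paralog and of their sum in each mouse by group (linear axes from 0), with females as circles, males as squares and the mean of each sex as a bar. The summed TPM lies between 783 and 2567 in the 10 mice given *Upf3b*-GalNAc-ASO and between 2264 and 6585 in the 21 other mice.

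Compared with DPBS instead, the same 5 treated mice gave similar values. *Serpina1e* had a log2 fold change of -3.46 (SE 0.49, adjusted p = 4.71e-04), *Serpina1a* of -0.89 (SE 0.20, adjusted p = 0.0191) and the summed TPM of -1.04 (SE 0.22, adjusted p = 0.0124). Here 2 of the 5 paralogs were called lower, where 0.837% of 9078 genes were called lower and 0.297% higher. *Serpina1a* was 201 to 358 TPM in the treated mice and 448 to 743 TPM in the DPBS mice, without overlap, and the share of all genes without overlap was not counted. The calls of *Serpina1a* and of the sum were lost without treated female mouse 1, the lowest of the group (adjusted p = 0.117 and 0.0751), and without the trend and robust options of limma (adjusted p = 0.0775 for both). *Serpina1c*, *Serpina1d* and *Serpina1b* had log2 fold changes of -0.97 (adjusted p = 0.102), -0.90 (adjusted p = 0.0929) and -0.42 (adjusted p = 0.514). *Serpina1d* passed with all 5 groups in one fit (adjusted p = 0.0260) and without treated male mouse 4 (adjusted p = 0.0291). Both comparisons share the treated mice and are not independent of each other.

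Control-GalNAc-ASO at 20 mg/kg was compared with DPBS to see whether an ASO of control sequence moved the family. None of the 5 paralogs nor any other gene passed the test in limma (0% of 9140 genes called), and 905 genes had an unadjusted p under 0.05, *Serpina1a* among them (-0.36, SE 0.17, unadjusted p = 0.0477, adjusted p = 0.503). *Serpina1e* differed by -0.03 with a 95% interval from -0.79 to 0.74, and the summed TPM by -0.07 with an interval from -0.44 to 0.30. The intervals of *Serpina1b*, *Serpina1c* and *Serpina1d* all lay between -0.43 and 0.57. An interval around 0 does not show that the levels were equal. At 15 mg/kg, described without a test, the 2 Control-GalNAc-ASO males had a mean *Serpina1e* 2.56-fold lower than the DPBS males and a mean *Serpina1b* at 157% of theirs, both without overlap, and their *Upf3b* was 2.74-fold lower, also without overlap. With 2 males against 5, a lack of overlap can readily arise by chance, and its share over all genes was not counted. In females, and for the other paralogs and the sum in males, the 15 mg/kg mice overlapped the DPBS mice.

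**Figure D3:**
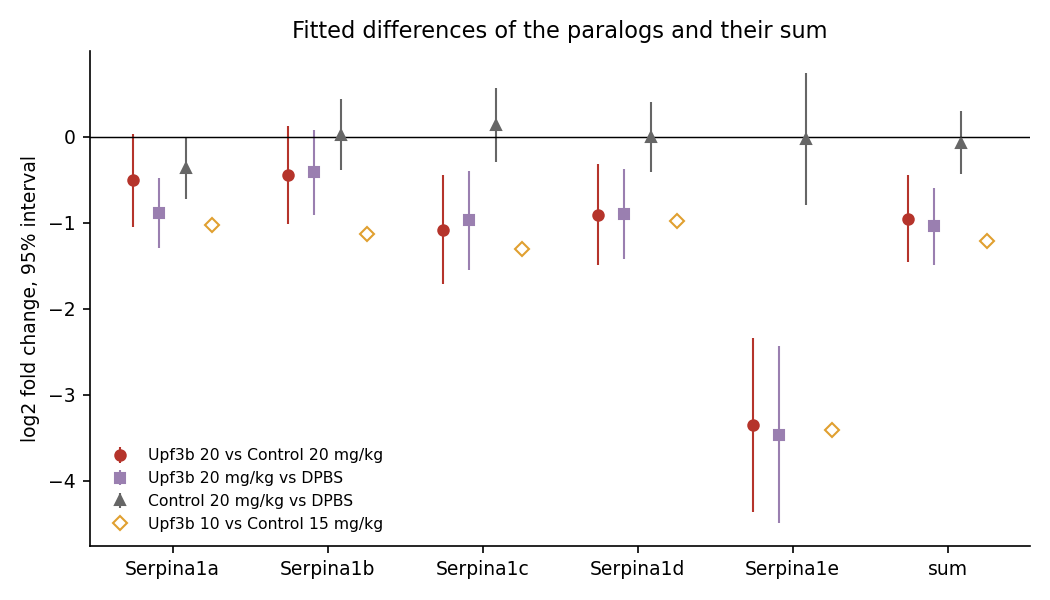
Fitted log2 fold changes of the 5 paralogs and of their sum in 4 comparisons, with 95% intervals for the 3 that were tested and open symbols without intervals for the comparison that chose *Serpina1e*. *Serpina1e* lies between -3.46 and -3.35 in all 3 comparisons with *Upf3b*-GalNAc-ASO, and every paralog lies between -0.36 and 0.14 for Control-GalNAc-ASO against DPBS.

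In the comparison that drew attention to the family, *Upf3b*-GalNAc-ASO at 10 mg/kg and Control-GalNAc-ASO at 15 mg/kg, doses and groups differed together, and 0.175% of 9166 genes were called lower and 0.12% higher. *Serpina1e* was 47.9, 36.5 and 15.6 TPM in treated males and 673 and 319 TPM in control males. In females it was 8.42 and 1.05 TPM as compared with 28.3 and 32.2 TPM. The value of 1.05 TPM corresponded to about 1 read of female mouse 3 and was below the 3 reads that a count of 0 allows. The log2 fold change of *Serpina1e* was -3.41 (SE 0.50), and those of *Serpina1a*, *Serpina1b*, *Serpina1c*, *Serpina1d* and the sum were -1.02, -1.14, -1.31, -0.98 and -1.22. Without female mouse 3 they were -3.12 for *Serpina1e*, -0.73, -0.86, -0.98 and -0.92 for the others and -0.98 for the sum. The summed TPM was 783 to 2364 in the treated mice and 3106 to 4475 in the controls. No test is given for these values.

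The composition of the family differed between the sexes and between the 20 mg/kg groups. *Serpina1e* held 20.8 to 35.3% of the summed TPM in DPBS-treated males and 0.579 to 3.35% in females. At 20 mg/kg its share was 4.94, 1.27 and 2.80% in treated males and 13.0, 20.8 and 36.3% in control males. In females it was 0.212 and 0.955% in treated mice and 2.40, 1.28 and 1.69% in control mice. The mean share was thus 2.03% in treated mice and 12.6% in controls, a difference of -10.5 percentage points (exact permutation within sex, two-sided p = 0.01, adjusted p = 0.01 over 2 tests). The p rose to 0.08, 0.1 and 0.09 without treated male mouse 2, 4 or 5, and to 0.126 when sex was disregarded. In males *Serpina1e* accounted for 53.5% of the difference in mean summed TPM between the 20 mg/kg groups and in females for 2.86%, where *Serpina1c* gave the most, 39.6%. Between the males at 10 and 15 mg/kg *Serpina1e* gave 23.0%, and *Serpina1c* the most, 32.5%.

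**Figure D4:**
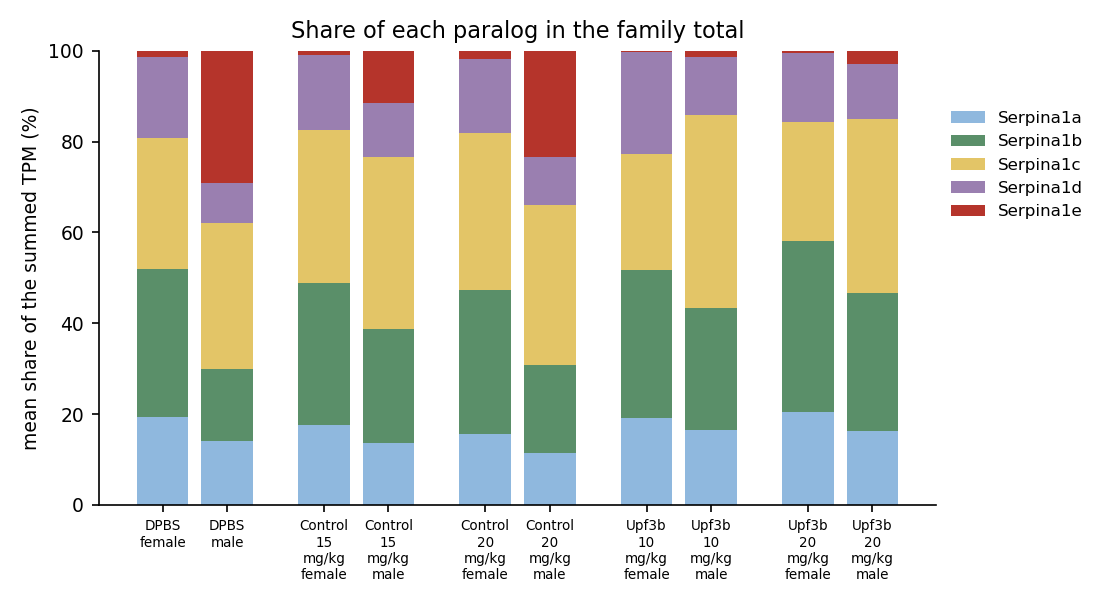
Mean share of each paralog in the summed TPM (%) by group and sex, stacked from *Serpina1a* at the bottom to *Serpina1e* at the top. *Serpina1e* holds 29.1% of the total in DPBS males, 1.47% in DPBS females and 3.00% in males given *Upf3b*-GalNAc-ASO at 20 mg/kg.

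Among the 4 other paralogs the shares varied more between single mice than between the group means, in which the sexes are pooled. Of their own total, *Serpina1a* held 15.5 to 19.7% on average in the 5 groups, *Serpina1b* 28.2 to 34.1%, *Serpina1c* 34.2 to 40.9% and *Serpina1d* 13.5 to 16.7%. In single mice *Serpina1a* held 13.1 to 23.5%, *Serpina1b* 20.0 to 39.9%, *Serpina1c* 20.2 to 53.1% and *Serpina1d* 9.61 to 28.7%. Over the 31 mice *Serpina1b* and *Serpina1d* varied most alike (Spearman correlation of 0.91), and *Serpina1b* and *Serpina1e* least alike (0.088), while *Serpina1c* and *Serpina1e* had 0.76. The paralogs share reads and the mice share sex and treatment, so these correlations are descriptions.

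The treatment difference of *Serpina1e* was not shown to depend on sex. The interaction of treatment and sex at 20 mg/kg was -0.98 on the log2 scale (SE 0.95, 95% interval -3.004 to 1.04, adjusted p = 0.999), and none of the 5 paralogs was called, where 0.0107% of 9376 genes were. With 2 or 3 mice per cell the interval was wide. *Serpina1e* of males exceeded that of females by 14.9-fold in the means of the Control-GalNAc-ASO mice at 20 mg/kg, 5.88-fold in the *Upf3b*-GalNAc-ASO mice at 20 mg/kg and 7.03-fold in those at 10 mg/kg.

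Ordered by the median of each sex in each group, *Serpina1e* was highest in DPBS males (1198 TPM), followed by Control-GalNAc-ASO males at 20 mg/kg (820.0 TPM) and at 15 mg/kg (496 TPM). Each overlapped the next, but the Control-GalNAc-ASO males at 15 mg/kg (319 and 673 TPM) lay below all DPBS males. A gap followed, from 319 TPM for the lowest of these males to 92.4 TPM for the highest *Upf3b*-GalNAc-ASO male at 20 mg/kg (median 53.3 TPM). From there down each group overlapped with the next: Control-GalNAc-ASO females at 20 mg/kg (39.7 TPM), *Upf3b*-GalNAc-ASO males at 10 mg/kg (36.5 TPM), Control-GalNAc-ASO females at 15 mg/kg (30.2 TPM), DPBS females (29.8 TPM) and the *Upf3b*-GalNAc-ASO females at 20 and 10 mg/kg (10.1 and 4.74 TPM).

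Other genes around the inhibitor were described by lists, at 20 mg/kg against Control-GalNAc-ASO. None of 9 other clade A serpins tested was called, with a median log2 fold change of -0.05 beside -0.12 for all genes. The most abundant of them, *Serpina3k*, a kallikrein inhibitor, was 3635 ± 2022 TPM (n = 5) as compared with 4403 ± 1683 TPM (n = 6, SD, adjusted p = 0.365). Against DPBS, *Serpina7*, which encodes the carrier of thyroid hormone, was higher (41.6 ± 10.3 TPM, n = 5, against 10.3 ± 6.94 TPM, n = 11, SD, log2 fold change 2.15, adjusted p = 0.0356). None of 17 plasma inhibitors of proteases outside clade A was called (median -0.05), with fetuin (*Ahsg*) at a log2 fold change of 0.28 (adjusted p = 0.672). Of 8 proteases that alpha-1 antitrypsin inhibits only 2 were abundant enough to be tested, and neither was called (*F11*, coagulation factor XI, 0.35, adjusted p = 0.638).

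None of 25 genes for the folding, export and degradation of secreted glycoproteins was called (median -0.06), with the chaperone *Hspa5* at 2483 ± 716 TPM as compared with 3343 ± 1434 TPM (SD, adjusted p = 0.457). None of 12 transcription factors of the alpha-1 antitrypsin promoter and of hepatocytes was called (median -0.46), with *Cebpa* at 0.50 (adjusted p = 0.419). Of 16 acute-phase proteins tested, *Hpx*, which encodes the heme carrier hemopexin, was called higher (1285 to 4271 TPM in treated mice, mean 2172, against a mean of 592 ± 117 TPM in controls, log2 fold change 1.75, adjusted p = 0.00217), and none was called lower (median 0.08). Against DPBS none of 16 acute-phase proteins tested was called. Alpha-1 antitrypsin is itself an acute-phase protein in humans.

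Since *Serpina1e* was male-biased, the sex-biased lists were read in the same comparison. Of 12 male-biased genes tested, *Slco1a1*, a transporter of organic anions, was called lower (70.2 ± 67.8 TPM against 171 ± 142 TPM, SD, log2 fold change -1.66, adjusted p = 0.0204), and the median of the list was -0.75. None of 9 female-biased genes was called, and their median was -1.32. Among the markers of other cell types, *Pecam1* of endothelial cells was called higher (1745 ± 208 TPM against 810 ± 401 TPM, SD, log2 fold change 1.27, adjusted p = 0.0201), 1 of 8 endothelial markers tested. Against DPBS neither *Pecam1* (0.69, adjusted p = 0.441, limma) nor any of 12 male-biased genes was called. There *Pecam1* was 1485 to 2022 TPM in treated mice and 390 to 2306 TPM in DPBS mice. Against Control-GalNAc-ASO the median log2 fold change of the 8 endothelial markers was -0.07, beside -0.12 for all genes. The 8 markers summed to 1577 to 2251 TPM in the treated mice and 645 to 1678 TPM in the controls. *Pecam1* alone was 1485 to 2022 TPM and 430 to 1490 TPM of these. Their part in the values of the paralogs was not tested. None of 11 Kupffer cell and macrophage markers, 6 stellate cell markers and 2 cholangiocyte markers was called, and no neutrophil or lymphocyte marker was abundant enough to be tested. In the comparison at the lower doses only *Acot3*, an acyl-CoA thioesterase on the female-biased list, was called among all lists (-2.64, adjusted p = 0.0491).

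The genes whose pattern over the 31 mice was most like that of *Serpina1e*, among 8498 others, were *Mup18* (Spearman correlation of 0.79), *C8a* (0.77), *Ddx3y* (0.76), *Mup17* (0.75) and *Slco1a1* (0.75). All 5 had higher medians in males than in females, as *C8a*, a complement component, with 242 and 70.3 TPM. *Ddx3y* had medians of 36.4 TPM in males and 0 TPM in females. Within the 16 males the correlations were 0.36 to 0.84 and within the 15 females 0.11 to 0.71. Both the 0.84 and the 0.11 were those of *Ddx3y*. The genes most like the summed TPM were *Gys2*, the glycogen synthase of liver (0.79), *Msra*, a methionine sulfoxide reductase (0.79), *Ghr*, the growth hormone receptor (0.76), *Arhgap42* (0.76) and *Klkb1*, plasma prekallikrein (0.75). For these 5 the correlations were 0.72 to 0.86 within males and 0.70 to 0.90 within females. All mice share depth, sex and treatment between the genes compared, and no p is given.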

How the data were processed

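Liver RNA of 31 mice was measured with a 3′ tag kit per the labels (the published methods name another kit). The authors demultiplexed reads with bcl2fastq 2.17.1.14 and quantified them with Salmon 0.7.2 on mouse cDNA (GRCm38). The authors deposited a TPM value for every symbol in every mouse. Of 31198 symbols, 26 turned into dates were dropped. The commonest value above 0 in each mouse was taken as 1 read, which gave the reads per mouse. 69.9 to 81.5% of values above 0 were whole multiples of it (within 0.02). The deposited TPM are not counts, so log2(TPM + 1) of genes whose median reached 5 TPM in a group or more was fitted with limma 3.58.1 (R 4.3.3, eBayes with trend and robust, sex as covariate), with Benjamini-Hochberg adjustment over all genes and calls at 0.05. Fold changes on this scale understate changes of low genes. The sum replaced the 5 rows in its fit. Permutation tests used Python 3.11.15. The script was tested on simulated data.

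The members and gene lists were chosen with earlier results of these data known. Groups and replicate numbers came from sample titles. Nothing says which mice shared a litter or a day, and same-numbered mice did not deviate together (correlations -0.27 to 0.10). Genes named are the members, *Upf3b*, the called genes of each list (at most the 4 largest) or its most abundant tested gene, and the 5 genes most like *Serpina1e* and the sum. Sequences are from GENCODE M21, RefSeq and, for the ASO, the supplementary table of the study. Alternatives were other pseudocounts, filters and scalings, other covariates, all groups in one fit, a replicate block, 1 sex and leaving out mice. Sample descriptions give both weekly dosing and dosing every 5 days.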

Additional observations from a re-analysis of the deposited data

Results flagged for a closer look

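*Serpina1a* in the *Upf3b*-GalNAc-ASO mice at 10 mg/kg held a value far from the others of its group. Female mouse 3 was at 137 TPM, while the other 4 mice lay between 319 and 385 TPM, and the gap to the nearest mouse was 0.731 of the whole range of the group (critical value 0.71 for 5 mice). Of 28 sets of values examined this was the only one, and chance flags about 1 in 20. The same library was the shallowest of the 31, at 1020676 reads, and had the lowest median correlation with its group, 0.677. The part of depth in the value was not tested.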

How the results depend on the processing

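At 20 mg/kg against Control-GalNAc-ASO, the summed TPM (-0.95) was no longer called with a pseudocount of 0.1 (-0.95), without the filter on low values (-0.95), after rescaling (-0.84), without trend and robust (-0.95), without sex (-0.91), without the shallow library of control mouse 1 (-0.85), in females (-1.18) or males (-0.78) alone, or without *Serpina1e* (-0.75), and leaving out 1 mouse gave -1.09 to -0.73. *Serpina1e* lost its call without sex (-3.01) and in females alone (-2.81), and kept it with each mouse left out (-3.92 to -3.01). The 236 genes called became 154 with a pseudocount of 0.1, 67 without the filter, 60 without trend and robust, 143 without that library, 51 in females, 13 in males and 70 to 270 with 1 mouse left out. The difference in the *Serpina1e* share was -10.5 points without regard to sex (p = 0.126 by exact permutation) and -12.8 to -5.79 points with 1 mouse left out, an alternative chosen after seeing the data, as was leaving out mice in the comparison at the lower doses, where every value moved by less than the spread between mice.

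Against DPBS, the sum lost its call without trend and robust (-1.04), without sex (-0.96) and without *Serpina1e* (-0.78), with -1.19 to -0.85 when 1 mouse was left out. *Serpina1e* lost it without sex (-2.83) and *Serpina1a* without trend and robust (-0.89), and the 103 genes called became 56 to 119 with 1 mouse left out. For Control-GalNAc-ASO at 20 mg/kg against DPBS, where nothing was called, signs turned for *Serpina1b* (-0.080 after rescaling, -0.043 without the shallow libraries of that mouse and of DPBS mice 6 and 7, -0.050 to 0.13 with 1 mouse left out), *Serpina1c* (-0.070 without the shallow libraries), *Serpina1d* (-0.078 to 0.10), *Serpina1e* (0.18 without sex, 0.0042 with all 5 groups in one fit, -0.30 to 0.23) and the sum (-0.18 to 0.016). There 1 gene was called with a pseudocount of 5, and 0 to 7 with 1 mouse left out. Between the sexes, all 5 groups in one fit gave 234 called genes and a sum of 0.56, and *Serpina1a* turned to -0.0088 without the shallow libraries and ranged from -0.038 to 0.14. The interaction with sex called 0 genes with a pseudocount of 0.1, without the filter, without trend and robust and without the shallow libraries, 3 with a pseudocount of 5, and 0 to 1 with 1 mouse left out, where *Serpina1e* ranged from -2.35 to 0.38 and the sum from -0.14 to 0.94. The cause of these changes was not tested.

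Mice share only a replicate number, so the replicate block is given here once. With it, the sum was -0.95 (adjusted p = 0.223) against Control-GalNAc-ASO with 45 genes called, and -1.43 (adjusted p = 0.0686) against DPBS with 42. Against DPBS *Serpina1e* was -3.54 (adjusted p = 0.0853) and *Serpina1a* -1.10, both no longer called. For Control-GalNAc-ASO against DPBS, *Serpina1b* was -0.15 and *Serpina1c* -0.042. Depth limited mainly *Serpina1e* in females, down to about 1 read.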
